A study of Mus musculus with 12 samples.

Results

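Extracellular matrix genes other than collagens were followed in cultured primary myofibroblasts of the mouse distal colon, the contractile fibroblasts of its wall. The group holds 42 genes, chosen by symbol from a table of 24411, and covers matrix glycoproteins, proteoglycans and the enzymes that crosslink the matrix, with collagens, laminins and proteases left out. The knockout libraries (6) came from TNFR1-/- mice, which lack the type I receptor for tumor necrosis factor (TNF). The control libraries (6) came from TNFR1+/- mice, which are heterozygous and not wild type. All cells were untreated, of C57BL/6 background and from 16-week-old mice, and were used at passage 6 to 8 after growth in Matrigel, an extract of basement membrane, with RNA taken at day 5. The comparison asks how transcripts of the colonic mesenchyme differ when the receptor is absent. Whether each library of a group stands for another animal or culture is not stated, and p-values therefore measure only the spread between these samples.

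The matrix around fibroblasts is built on fibronectin and collagen fibrils. Elastin, laid on fibrillin microfibrils with fibulins and microfibril-associated proteins, gives it recoil. Small leucine-rich proteoglycans such as decorin bind collagen fibrils and set their width. Matricellular proteins (thrombospondins, tenascins, osteopontin, SPARC) are secreted into the matrix but act mainly as signals to cells. Hyaluronan is a glycosaminoglycan chain spun out at the cell surface by hyaluronan synthases, nidogens and perlecan belong to basement membranes, and lysyl hydroxylases and lysyl oxidases make the crosslinks that hold fibrils together. Myofibroblasts are the main source of such matrix in the colon wall.

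By their profiles the libraries formed 4 sets. Knockout 1 to 4 were alike, as were knockout 5 and 6, and control 6 stood apart from control 1 to 5. Within a set, Spearman correlations across genes were 0.989 to 0.998. Control 6 correlated at 0.968 to 0.976 with knockout 1 to 4 and at 0.952 to 0.954 with control 1 to 5. With knockout 5 and 6 it correlated at only 0.882 to 0.884, so it lay nearest to knockout 1 to 4. Knockout 5 and 6 correlated at 0.926 to 0.927 with knockout 1 to 4, which in turn correlated at 0.937 to 0.941 with control 1 to 5. Similarity of the profiles thus did not follow genotype. Each pair of libraries was also compared by chi-square per degree of freedom, which is near 1 when only counting noise separates them. Pairs sharing a set had values from 1.38 up to 9.83, while the other pairs had values from 46.2 up to 305. Whether libraries of the same set came from a single source was not tested. The SD and the tests on all 12 libraries count each library as a separate sample, so p-values may be too small. Tnfrsf1a, the gene that encodes TNFR1, was lower in all 6 knockout libraries, at 44.1 ± 2.32 CPM, against 74.7 ± 10.1 CPM in control (SD, n = 6 each; CPM, counts scaled to a common library size; log2 difference -0.76, SE 0.10, edgeR adjusted p = 9.24e-05). Control 6 had 54.9 CPM of it, the lowest control value. Gene-level counts cannot tell which exons remain in the transcript. Total counts ran from 6543013 to 9937008 in knockout libraries and from 11890729 to 16458689 in control libraries, so low genes were counted less precisely in the knockout. The ribosomal RNA precursor gene Rn45s took 7.01% and 8.25% of the counts in knockout 5 and 6, and at most 2.1% in any other library. Fibroblast markers (Col1a1, Col1a2, Col3a1, Pdgfra, Vim and 4 more) summed to 8231 CPM in knockout 5 and 8249 CPM in knockout 6, to 23807 to 24906 CPM in knockout 1 to 4, and to 22170 to 30514 CPM in control libraries. Col1a1 and Col1a2 made up most of that sum in the other libraries. In knockout 5 and 6 Col1a1 was at 1993 and 2102 CPM and Col1a2 at 1358 and 1374 CPM, and Vim was the largest member. The members did not go one way. Vim was not low in knockout 5 and 6, at 3932 and 3844 CPM, against 3626 to 4043 CPM in knockout 1 to 4 and 1888 to 3095 CPM in control libraries, and Fap was level across the knockout libraries at 6.62 to 9.75 CPM, below the 19.1 to 24.7 CPM of the controls. The 10 epithelial markers summed to 14.9 to 23.3 CPM in knockout libraries, against 7.49 to 20.2 CPM in control libraries. No library had more than 1 count of Epcam or of Cdh1, but Krt19 reached 169 counts and Krt20 116, and neither of these passed the test. Knockout 5, knockout 6 and control 6 bear on many of the values, so differences are given with all 12 libraries and, where the call or direction turns, without some or all of those 3.

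Of the 42 genes, 41 were expressed highly enough to be tested. In knockout cells 2 were higher, the tenascin gene Tnc and the hyaluronan synthase gene Has2, and 11 were lower, namely Fbln1, Mfap2, Mfap4, Spp1, Thbs2, Thbs3, Tgfbi, Matn2, Lum, Dcn and Plod1, while 28 did not pass an adjusted p of 0.05 (edgeR quasi-likelihood test, adjusted over all genes). Over all 12146 genes tested, 43% passed, with 21.4% higher and 21.6% lower, so 13 of 41 is not above the background. In bulk RNA of this kind, fewer cells that express a gene and less RNA per cell cannot be told apart. The 11 genes that were lower had no overlap between groups, and Has2 was the 1 gene with every knockout library above every control library. Over all genes 12.5% lay wholly below the controls and 10.6% wholly above. The median log2 difference was -0.24 over the 41 genes and 0.02 over all tested genes. All 13 calls kept their direction and passed when knockout 5, knockout 6 and control 6 were left out. Those libraries were left out because their profiles stood apart. For genes whose groups did not overlap, the direction could hardly turn by leaving libraries out. The fit without these libraries called 24 of the 42 genes higher and 14 lower, against 4319 and 4508 of all 12382 genes it tested. Because it compares knockout 1 to 4 with control 1 to 5, the set and the genotype cannot be told apart there. Its p-values, here and below, measure only the small spread within each set, where Spearman correlations were at least 0.989. When each set was summed to a single sample, none of the 42 genes and none of all genes passed (smallest edgeR adjusted p = 0.0716). In that fit 10 of the 42 matrix genes had an unadjusted p under 0.05, 1 higher and 9 lower, as had 1047 of 13132 genes.

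**Figure D1:**
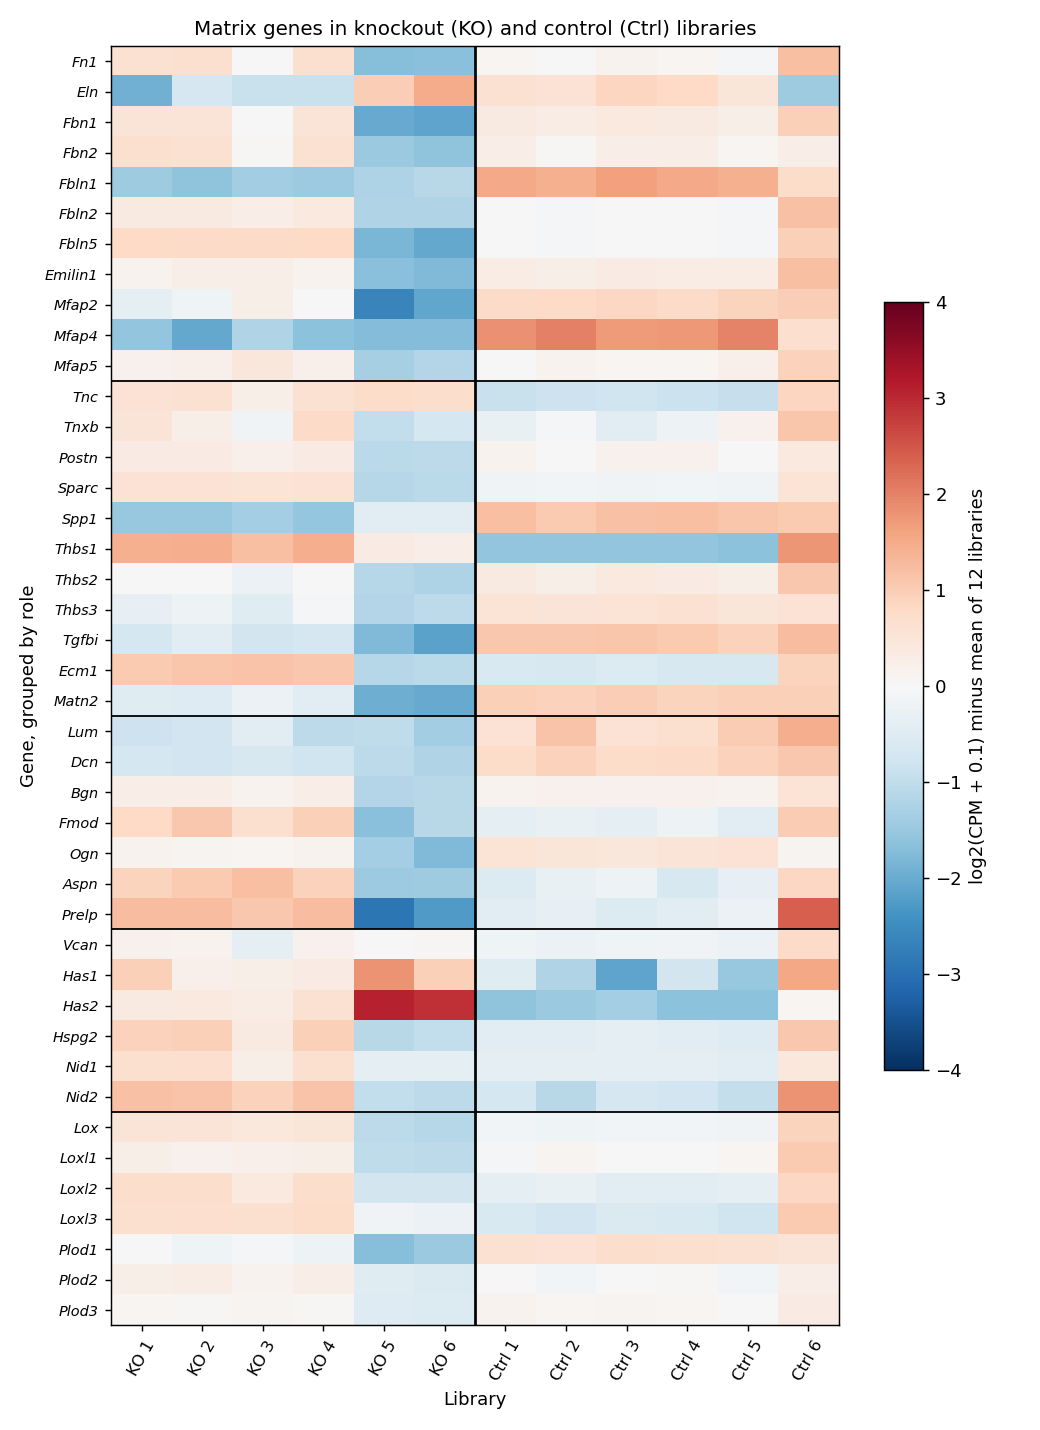
Expression of the 42 matrix genes (rows, grouped by role) in the 6 knockout (KO) and 6 control (Ctrl) libraries (columns), as log2(CPM + 0.1) minus the mean of the gene over the 12 libraries. Knockout 5 and 6 are blue in most rows, control 6 is red in most rows, and Fbln1, Mfap4 and Spp1 are blue in all knockout and red in all control libraries.

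The 4 sets were visible in most of the genes. Knockout 5 and 6 lay below all 10 other libraries in 29 of the 41 tested matrix genes (70.7%), against 26.1% of all tested genes, and above all others in 2 (4.88%, against 26.6% of all genes). Control 6 exceeded control 1 to 5 in 32 matrix genes (78%, against 39.9% of all genes) and was the highest of all 12 libraries in 25 (61%, against 16.3%). Together the 42 genes accounted for 6.5% to 7.76% of the counts in knockout 1 to 4 and 3.11% to 3.19% in knockout 5 and 6, against 4.36% to 4.68% in control 1 to 5 and 10.2% in control 6. In all but 12 of the 41 genes the values of the genotypes overlapped.

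Promoter sequence is shown for genes whose window held a kappaB motif, the element bound by the NF-kB factors that TNFR1 activates. RefSeq windows of GRCm38.p6 were matched by symbol for 26 of the 42 genes (32 windows), and the 250 bases before each start were searched on both strands. A kappaB motif stood in a window of 3 of the 7 genes with a window that were lower, in 0 of the 1 that was higher and in 0 of the 17 that did not pass. The lower genes had 10 windows, of which the 3 printed below held it. Of all 32851 windows 7.25% held it, which is a share per window and not per gene. The windows below are written 5′ to 3′ on the strand of the gene and end at the last base before the start, with the match in capitals. Fbln1 lies at chr15:85205758-85206007 on the plus strand with the match 29 bases before the start, Mfap2 at chr4:141010431-141010680 on the plus strand with the match 184 bases before it, and Thbs2 at chr17:14694263-14694512 on the minus strand with the match 156 bases before it.
Fbln1: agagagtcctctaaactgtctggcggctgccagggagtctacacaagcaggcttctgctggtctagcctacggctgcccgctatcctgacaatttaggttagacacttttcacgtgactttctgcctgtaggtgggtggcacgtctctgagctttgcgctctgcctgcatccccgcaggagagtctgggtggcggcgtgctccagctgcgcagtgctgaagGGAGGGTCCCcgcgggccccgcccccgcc
Mfap2: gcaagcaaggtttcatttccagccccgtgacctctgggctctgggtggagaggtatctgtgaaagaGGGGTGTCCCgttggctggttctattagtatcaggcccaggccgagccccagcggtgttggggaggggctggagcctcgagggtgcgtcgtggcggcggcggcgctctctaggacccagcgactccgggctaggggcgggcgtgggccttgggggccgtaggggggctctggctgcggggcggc
Thbs2: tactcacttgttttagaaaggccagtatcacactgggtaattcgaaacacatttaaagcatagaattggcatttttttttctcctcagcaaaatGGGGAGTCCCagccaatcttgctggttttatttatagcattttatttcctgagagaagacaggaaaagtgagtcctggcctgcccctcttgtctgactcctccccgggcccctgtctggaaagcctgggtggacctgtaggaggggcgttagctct
The Mfap2 and Thbs2 matches read as the motif on both strands, and the Fbln1 match on the strand opposite to the gene. Fbln1 and Mfap2 each have another RefSeq start whose window held no match. The AP-1 motif TGANTCA stood in windows of Ecm1 and Tnxb, neither of which passed the test (6.75% of all windows). The sequence TATAAA, at any place in the window, stood in windows of the lower genes Plod1, Spp1 and Thbs2 and of the higher gene Tnc. It also stood in windows of Aspn, Ecm1, Ogn and Postn, which did not pass (12.4% of all windows). The Spp1 match began 211 bases before the start, and the window of its other start held none. The Tnc matches began 126 and 205 bases before its starts. The TATAAA match of Thbs2 did not overlap its kappaB match. A match describes the sequence and does not show binding.

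Among the 11 genes of fibronectin and elastic fibres, 3 fell, none rose and 8 did not pass, beside 21.6% lower among all genes. The 3 that fell encode accessory proteins of the elastic fibre. Other accessory genes (Fbln2, Fbln5, Emilin1 and Mfap5) did not pass. Fbln1, whose product fibulin-1 binds fibronectin and elastic fibres, had a lowest, median and highest value of 15.7, 18.1 and 21.9 CPM in knockout libraries, against 79.2, 132 and 150 CPM in control libraries. All 6 knockout libraries lay close together and far below the controls, of which control 6 was the lowest. The log2 difference was -2.76 (SE 0.15), a 6.78-fold lower level (edgeR adjusted p = 2.99e-07). Mfap4, a microfibril-associated glycoprotein that binds elastin and collagen, had 1.8, 2.37 and 3.32 CPM in knockout libraries, against 12.5, 26.7 and 31.7 CPM in control libraries. Its difference was the largest of the 41 genes, at -3.40 (SE 0.23; edgeR adjusted p = 1.5e-06) or 10.6-fold lower. Control 6 was again the lowest control, at less than the other 5 but above every knockout library. Mfap2, a small component of fibrillin microfibrils, had 1.87, 10 and 14.2 CPM in knockout libraries, against 20.8, 21.5 and 24.3 CPM in control libraries (log2 difference -1.38, SE 0.38, edgeR adjusted p = 0.0107). Here knockout 5 and 6 were far below knockout 1 to 4, and the log2 difference was -0.91 without those libraries and control 6.

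The main structural genes overlapped between genotypes. Fn1, encoding fibronectin, averaged 10281 ± 5934 CPM in knockout and 12438 ± 5165 CPM in control libraries (n = 6 each, ± SD; difference on the log2 scale -0.27, SE 0.43, edgeR adjusted p = 0.635). Its level in knockout 5 and 6 was 3071 and 3134 CPM, against 9863 to 15306 CPM in the other knockout libraries, and control 6 held 22927 CPM, against 9499 to 11035 CPM in the other controls. Fbn1, encoding the main fibrillin of microfibrils, ran from 321 to 1981 CPM in knockout and from 1612 to 2669 CPM in control libraries. Fbln5, a fibulin required for elastic fibre assembly in mice, held 662 to 679 CPM in knockout 1 to 4 but 94.9 to 110 CPM in knockout 5 and 6, against 365 to 390 CPM in control 1 to 5 and 748 CPM in control 6. In this gene the spread between sets of 1 genotype exceeded the difference of the means, and the fit without the 3 libraries gave a higher level in knockout (log2 difference 0.83, against 0.13 with all). Eln, encoding elastin itself, was counted at 1 to 20 per library. Its log2 difference was -0.28 with all libraries and did not pass, but it passed as lower without knockout 5 and 6 (-1.79, edgeR adjusted p = 0.0208) and without control 6 as well (-2.02, adjusted p = 9.48e-05), with knockout 5 and 6 at 1.45 and 2.07 CPM and knockout 1 to 4 at no more than 0.385 CPM. The remaining 4 genes (Fbn2, Fbln2, Emilin1 and Mfap5) had log2 differences of -0.70 to -0.12, all with overlapping groups. Without the 3 libraries Fn1 (0.43, edgeR adjusted p = 0.00128), Fbn2 (0.33, adjusted p = 0.00691), Fbln2 (0.37, adjusted p = 1.56e-07) and Mfap5 (0.16, adjusted p = 0.0209) passed as higher, Emilin1 passed as lower (-0.095, adjusted p = 0.0459), and Fbn1 did not pass.

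**Figure D2:**
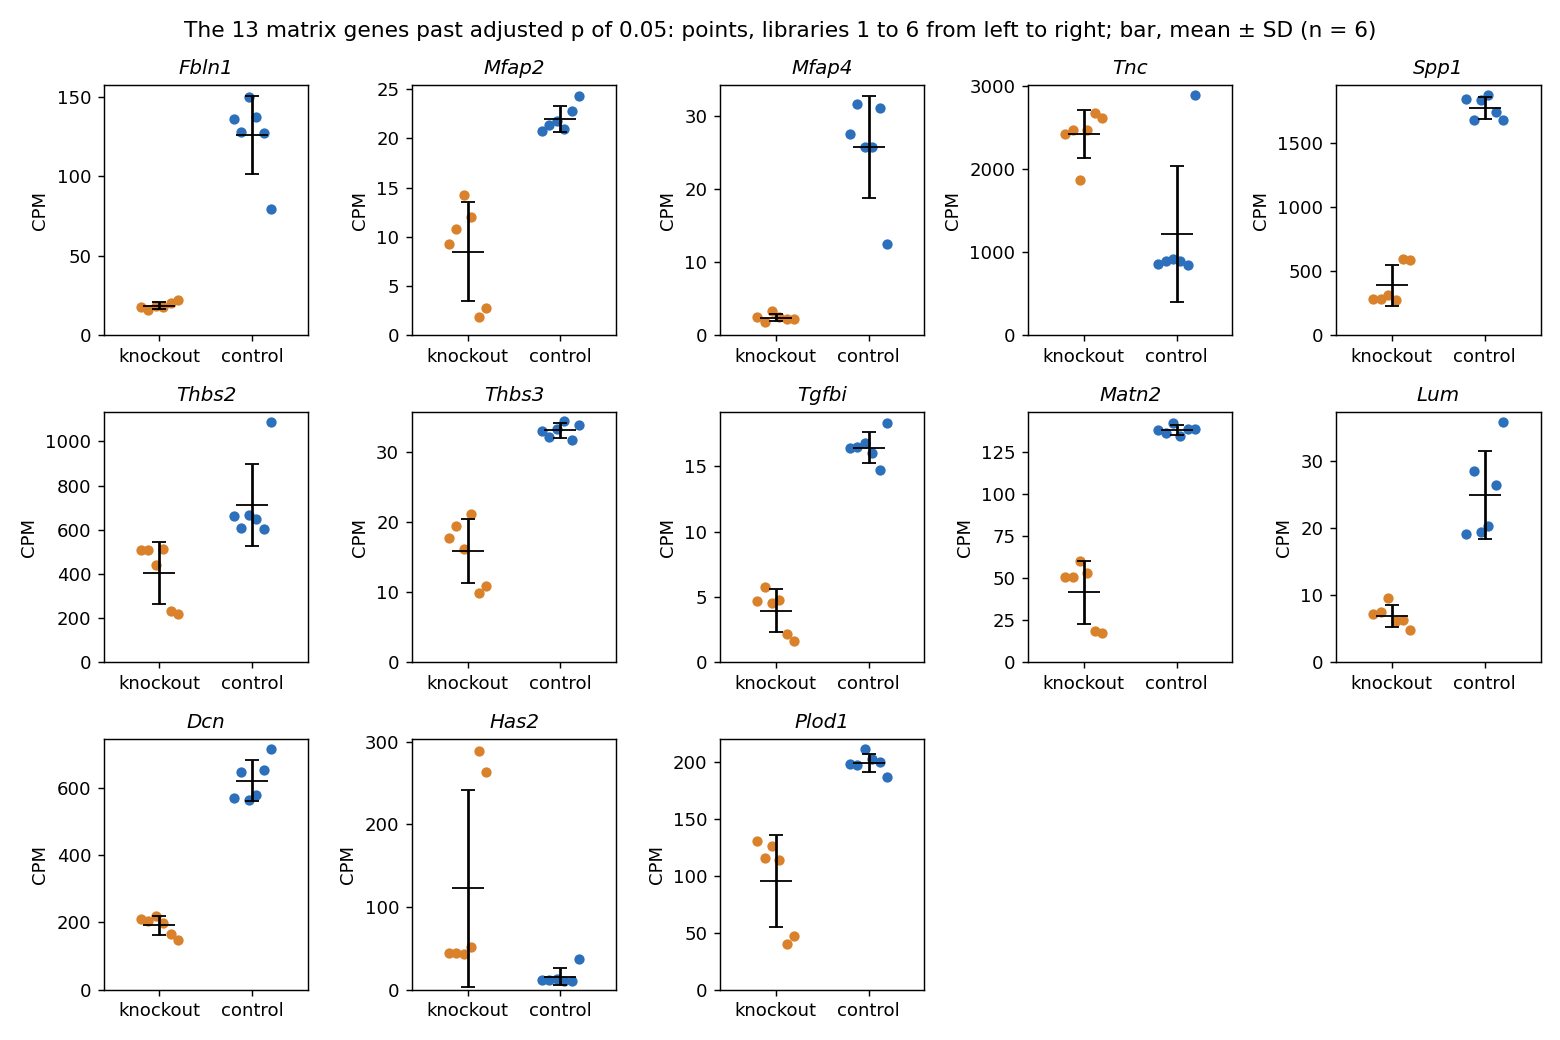
CPM of the 13 matrix genes that passed an edgeR adjusted p of 0.05, in knockout (left, orange) and control (right, blue) libraries, each point 1 library in the order 1 to 6 from left to right, with the mean and SD (n = 6 each). Tnc is the gene whose groups overlap, through control 6 at 2890 CPM, and Has2 splits within the knockout into 4 libraries at 42.6 to 52 CPM and 2 at 263 and 289 CPM.

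Of the 11 matricellular and adaptor glycoproteins, Tnc was higher, 5 were lower and 5 did not pass. Over all tested genes 21.4% were higher and 21.6% lower. Spp1 encodes osteopontin, a secreted phosphoprotein that binds integrins and CD44. It had a lowest, median and highest value of 275, 297 and 592 CPM in knockout libraries, against 1678, 1783 and 1869 CPM in control libraries. All controls, control 6 included, were close together, and knockout 5 and 6 (592 and 588 CPM) were above knockout 1 to 4. The log2 difference was -2.19 (SE 0.22; edgeR adjusted p = 2.33e-05), and -2.64 without the 3 libraries. Macrophages also express Spp1. In the same libraries 9 of 12 tested macrophage and leukocyte markers were lower, 0 were higher and 3 did not pass, beside 21.6% lower among all genes. The list summed to 43.7 to 72.0 CPM in knockout libraries, against 107 to 151 CPM in control libraries. Lyz2 was the most abundant of them at 27.3 to 36.9 CPM in knockout and 49.2 to 93.2 CPM in control libraries, with control 6 the highest. C1qa and C1qb were instead lower in control 6 than in the other controls, at 6.55 and 7.57 CPM. Cd14 was level between the means, at 4.14 ± 1.56 CPM in knockout and 4.04 ± 0.423 CPM in control libraries, and the T cell marker Cd3e was at 0 in all 12. The part of these cells in the Spp1 difference was not tested.

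Tgfbi, a matrix adaptor protein induced by transforming growth factor beta, had 1.66, 4.65 and 5.77 CPM in knockout libraries (lowest, median and highest), against 14.7, 16.4 and 18.3 CPM in control libraries. The groups were well apart, with knockout 5 and 6 the lowest of all (log2 difference -2.07, SE 0.25, edgeR adjusted p = 6.19e-05). Matn2, a matrilin that links matrix filaments, had 17.7, 50.7 and 60.4 CPM in knockout libraries, against 134, 139 and 143 CPM in control libraries. Control 6, at 139 CPM, was like the other controls for this gene (log2 difference -1.73, SE 0.28, edgeR adjusted p = 0.000439). Between knockout 1 to 4 and control 1 to 5 alone, the log2 differences were -1.69 for Tgfbi and -1.37 for Matn2.

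The 3 thrombospondin genes did not move together. Thbs1 and Thbs2 encode the trimeric thrombospondins that bind CD36 and CD47, and Thbs3 encodes a pentameric member of the family. Thbs3 had 9.96, 17 and 21.1 CPM in knockout libraries, against 31.7, 33.1 and 34.4 CPM in control libraries (log2 difference -1.06, SE 0.17, edgeR adjusted p = 0.000364). Thbs2 had 220, 474 and 515 CPM in knockout libraries, against 604, 654 and 1089 CPM in control libraries (-0.82, SE 0.25, edgeR adjusted p = 0.0172). Neither overlapped between groups, but the Thbs2 difference was only -0.37 without knockout 5, knockout 6 and control 6. Thbs1 had 10559, 22167 and 24323 CPM in knockout libraries, against 2835, 2959 and 30302 CPM in control libraries. Control 6 had the highest Thbs1 level of all 12 libraries while control 1 to 5 had the 5 lowest, and with all libraries the difference did not pass (1.35, SE 0.65, edgeR adjusted p = 0.111). Without control 6 it was 2.70 (edgeR adjusted p = 4.23e-06).

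Tnc encodes tenascin-C, a glycoprotein made during repair and development. It had 1875, 2473 and 2670 CPM in knockout libraries, against 846, 896 and 2890 CPM in control libraries (log2 difference 0.99, SE 0.30, edgeR adjusted p = 0.0191). Knockout 5 and 6 were here no lower than the other knockout libraries, and control 6 lay above all of them. Smooth muscle markers had the same split among controls. Of the 8, 6 were higher and 2 did not pass, beside 21.4% higher among all genes. The list summed to 8381 to 9136 CPM in knockout 1 to 4 and 3767 to 3803 CPM in knockout 5 and 6, against 1991 to 2221 CPM in control 1 to 5 and 4536 CPM in control 6. Acta2 made up most of that sum. The members differed in knockout 5 and 6, where Myh11 was at 17.8 and 19.8 CPM, below every control library. Smtn was there at 116 and 129 CPM, against 120 to 122 CPM in knockout 1 to 4. The part of the smooth muscle list in the Tnc and Thbs1 values was not tested. Ecm1, extracellular matrix protein 1, did not pass with all libraries (0.90, SE 0.45, edgeR adjusted p = 0.122). It held 287 to 306 CPM in knockout 1 to 4 and 62.6 to 66.1 CPM in knockout 5 and 6, against 88.6 to 93.9 CPM in control 1 to 5 and 255 CPM in control 6. The call turned with single libraries, since Ecm1 passed as higher without knockout 5 (1.09, edgeR adjusted p = 0.043), without knockout 6 (1.09, adjusted p = 0.0463) or without control 6 (1.28, adjusted p = 0.0237). The remaining 3 were Sparc (0.18), a collagen-binding glycoprotein, Postn (-0.18), the collagen- and integrin-binding protein periostin, and Tnxb (-0.08), the large tenascin-X, given as log2 differences that did not pass. Without the 3 libraries all of them passed as higher, at 0.69 for Sparc (edgeR adjusted p = 1.13e-11), 0.20 for Postn (adjusted p = 0.00115) and 0.59 for Tnxb (adjusted p = 0.00804).

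The 7 small leucine-rich proteoglycans gave 2 lower, 0 higher and 5 not past the test, beside 21.6% lower and 21.4% higher among all genes. Dcn, encoding decorin, which binds collagen fibrils and transforming growth factor beta, had 148, 201 and 220 CPM in knockout libraries, against 565, 613 and 716 CPM in control libraries. The groups were well apart, with a log2 difference of -1.70 (SE 0.12; edgeR adjusted p = 1.5e-06) or 3.25-fold, and -1.53 without the 3 libraries. Lum, encoding lumican, a keratan sulfate proteoglycan of collagen fibrils, had 4.86, 6.77 and 9.65 CPM in knockout libraries, against 19.2, 23.3 and 35.7 CPM in control libraries (-1.85, SE 0.20, edgeR adjusted p = 2.77e-05). Control 6 had the highest level of both genes, so that for decorin and lumican it was the control farthest from the knockout libraries.

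The family sits in a few runs of adjacent genes, and these runs were looked at after the values had been seen, with gene order from RefSeq. Dcn, Lum, Kera and Epyc are consecutive on mouse chromosome 10. Epyc, encoding epiphycan, had 1 to 8 counts per knockout library, against 81 to 95 counts per control library, which is 0.506 ± 0.334 CPM in knockout and 6.32 ± 0.767 CPM in control (n = 6 each, ± SD; difference on the log2 scale -3.67, SE 0.32, edgeR adjusted p = 8.75e-06). Kera, the keratocan gene between them, had at most 1 count in any library and was not tested. All 3 tested genes of this run were therefore lower with no overlap between the groups. Another run on chromosome 13 holds Ecm2, Aspn, Omd and Ogn. Aspn, encoding asporin, held 19.8 to 24.4 CPM in knockout 1 to 4 and 3.74 to 3.83 CPM in knockout 5 and 6, against 6.72 to 9.21 CPM in control 1 to 5 and 18.6 CPM in control 6. Ogn, encoding osteoglycin, averaged 45.7 ± 21 CPM in knockout and 74.8 ± 8.02 CPM in control libraries (log2 difference -0.71, SE 0.30, edgeR adjusted p = 0.0685), and control 6, at 59.3 CPM, lay among the knockout values. Neither passed with all 12 libraries, but without knockout 5 and 6 Aspn passed as higher (1.12, edgeR adjusted p = 0.00399) and Ogn as lower (-0.34, adjusted p = 0.00692). Ecm2 and Omd had at most 13 and 11 counts in any library and were not tested. Prelp and Fmod, adjacent on chromosome 1, encode collagen-binding proteins and shared a pattern of sets. Prelp held 35.3 to 39.8 CPM in knockout 1 to 4 and 2.18 to 3.41 CPM in knockout 5 and 6, against 11.5 to 14.2 CPM in control 1 to 5 and 88.3 CPM in control 6, and Fmod, encoding fibromodulin, was likewise lowest in knockout 5 and 6. Their log2 differences were 0.06 and 0.43, and neither passed with all libraries. Fmod passed as higher without knockout 5 and 6 (0.88, edgeR adjusted p = 0.0237), and without control 6 as well both did, Prelp at 1.596 (adjusted p = 1.15e-11) and Fmod at 1.23 (adjusted p = 7.37e-08). Bgn, encoding biglycan, the closest relative of decorin, averaged 4369 ± 1752 CPM in knockout and 5497 ± 635 CPM in control libraries and did not pass (-0.33, SE 0.27, edgeR adjusted p = 0.333).

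**Figure D3:**
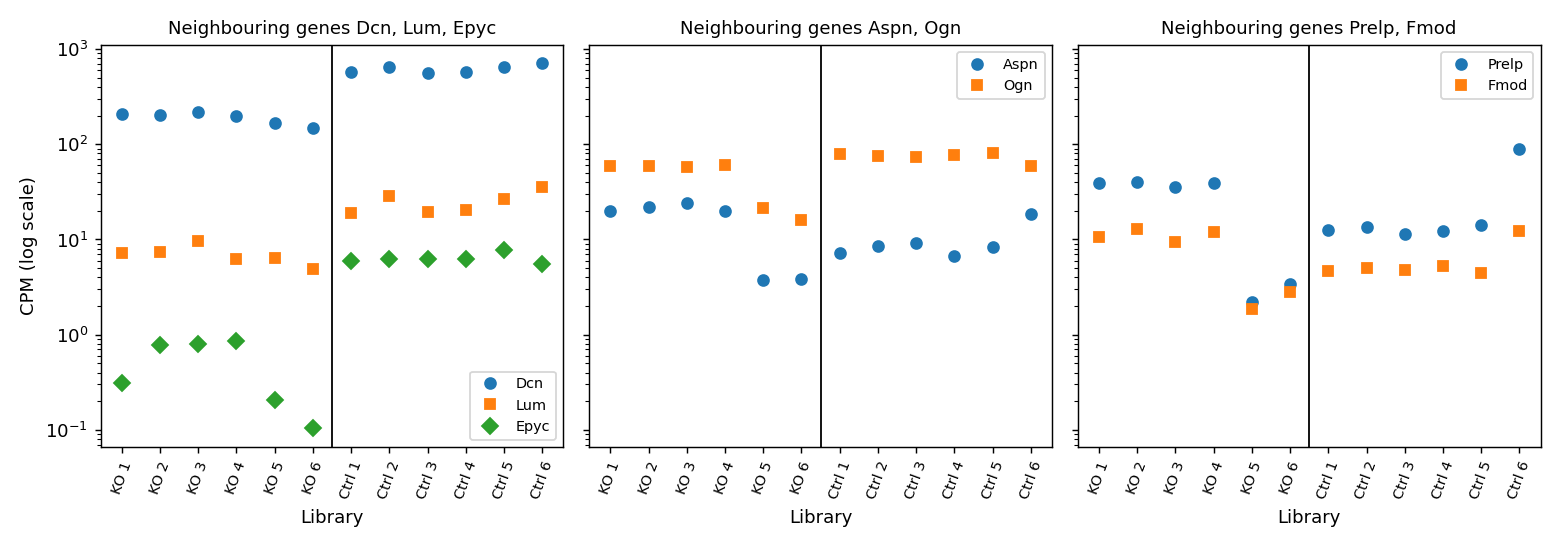
CPM (log scale) of small leucine-rich proteoglycan genes in each library, 6 knockout (KO) left of the line and 6 control (Ctrl) right of it, with 1 panel for each run of adjacent genes. Dcn, Lum and Epyc step up across the line between genotypes, while Aspn, Prelp and Fmod are lowest in knockout 5 and 6.

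In the large proteoglycan, hyaluronan and basement membrane group, 1 of 5 tested genes was higher, 0 were lower and 4 did not pass. Among all tested genes 21.4% were higher and 21.6% lower. Has2, the main hyaluronan synthase of mesenchymal cells, had 42.6, 48.3 and 289 CPM in knockout libraries, against 10.9, 11.8 and 36.6 CPM in control libraries. The libraries of knockout 5 and 6 stood far above the rest at 289 and 263 CPM, and control 6 was the highest control but below every knockout library. The log2 difference was 2.94 (SE 0.61; edgeR adjusted p = 0.00224), 1.52 without knockout 5 and 6, and 1.97 without those and control 6. Has2 is thus 1 of 2 matrix genes, with Eln, in which knockout 5 and 6 were above all other libraries. Has1, another hyaluronan synthase, had 1 to 33 counts per library and was not tested. Vcan, encoding versican, which binds hyaluronan, averaged 192 ± 25.6 CPM in knockout and 191 ± 64 CPM in control libraries, with a log2 difference of 0.01 (SE 0.18; edgeR adjusted p = 0.968). Without the 3 libraries it passed as higher at 0.24 (adjusted p = 0.021).

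The basement membrane genes Hspg2 (perlecan), Nid1 and Nid2 (nidogens) had log2 differences of 0.48, 0.51 and 0.60, none of which passed. Without the 3 libraries they were 1.28, 0.93 and 1.93, and all passed, and Hspg2 already passed without knockout 5 and 6 (0.88, edgeR adjusted p = 0.0379). Nid1 held 2495 to 3321 CPM in knockout 1 to 4 and 1597 to 1612 CPM in knockout 5 and 6, against 1575 to 1658 CPM in control 1 to 5 and 2821 CPM in control 6. Knockout 5 and 6 thus had the level of most controls. The Nid1 call rested on single libraries, as it passed as higher without knockout 5 (0.62, edgeR adjusted p = 0.0411), without knockout 6 (0.62, adjusted p = 0.0399) or without control 6 (0.68, adjusted p = 0.0173). Nid2 passed without control 6 alone (1.499, edgeR adjusted p = 0.00995), a library with 170 CPM, against 22.6 to 30.8 CPM in the other controls.

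Of the 7 crosslinking enzymes, 1 was lower, 0 were higher and 6 did not pass, beside 21.6% lower and 21.4% higher among all genes. Plod1, the lysyl hydroxylase that acts on helical collagen, had 40.4, 115 and 130 CPM in knockout libraries, against 187, 199 and 212 CPM in control libraries. The groups did not overlap, and knockout 5 and 6 were the lowest (log2 difference -1.06, SE 0.27, edgeR adjusted p = 0.00661; -0.73 without the 3 libraries). Plod2, which hydroxylates collagen telopeptides, averaged 234 ± 59.2 CPM in knockout and 234 ± 23.1 CPM in control libraries. Plod3, which also glycosylates hydroxylysine, averaged 260 ± 51.4 CPM in knockout and 308 ± 23.8 CPM in control libraries (-0.24, SE 0.13, edgeR adjusted p = 0.148). Lox, the founding lysyl oxidase, was nearly level between the means, at 2971 ± 1313 CPM in knockout and 2923 ± 1027 CPM in control libraries, with the spread coming from the sets (1240 to 1324 CPM in knockout 5 and 6, and 5017 CPM in control 6). The lysyl oxidase-like genes Loxl1, Loxl2 and Loxl3 had log2 differences of -0.36, 0.40 and 0.64, and none passed. Loxl2 passed as higher without knockout 5 and 6 (0.73, edgeR adjusted p = 0.0262). Without control 6 as well Loxl2 was at 1.01 (adjusted p = 3.03e-10), Loxl1 at 0.18 (adjusted p = 0.000909), Lox at 0.61 (adjusted p = 3.69e-10) and Plod2 at 0.27 (adjusted p = 6.26e-05), all higher, while Plod3 did not pass. Loxl3 passed without control 6 (1.10, edgeR adjusted p = 0.000366), which held 404 CPM of it, against 115 to 132 CPM in the other controls.

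**Figure D4:**
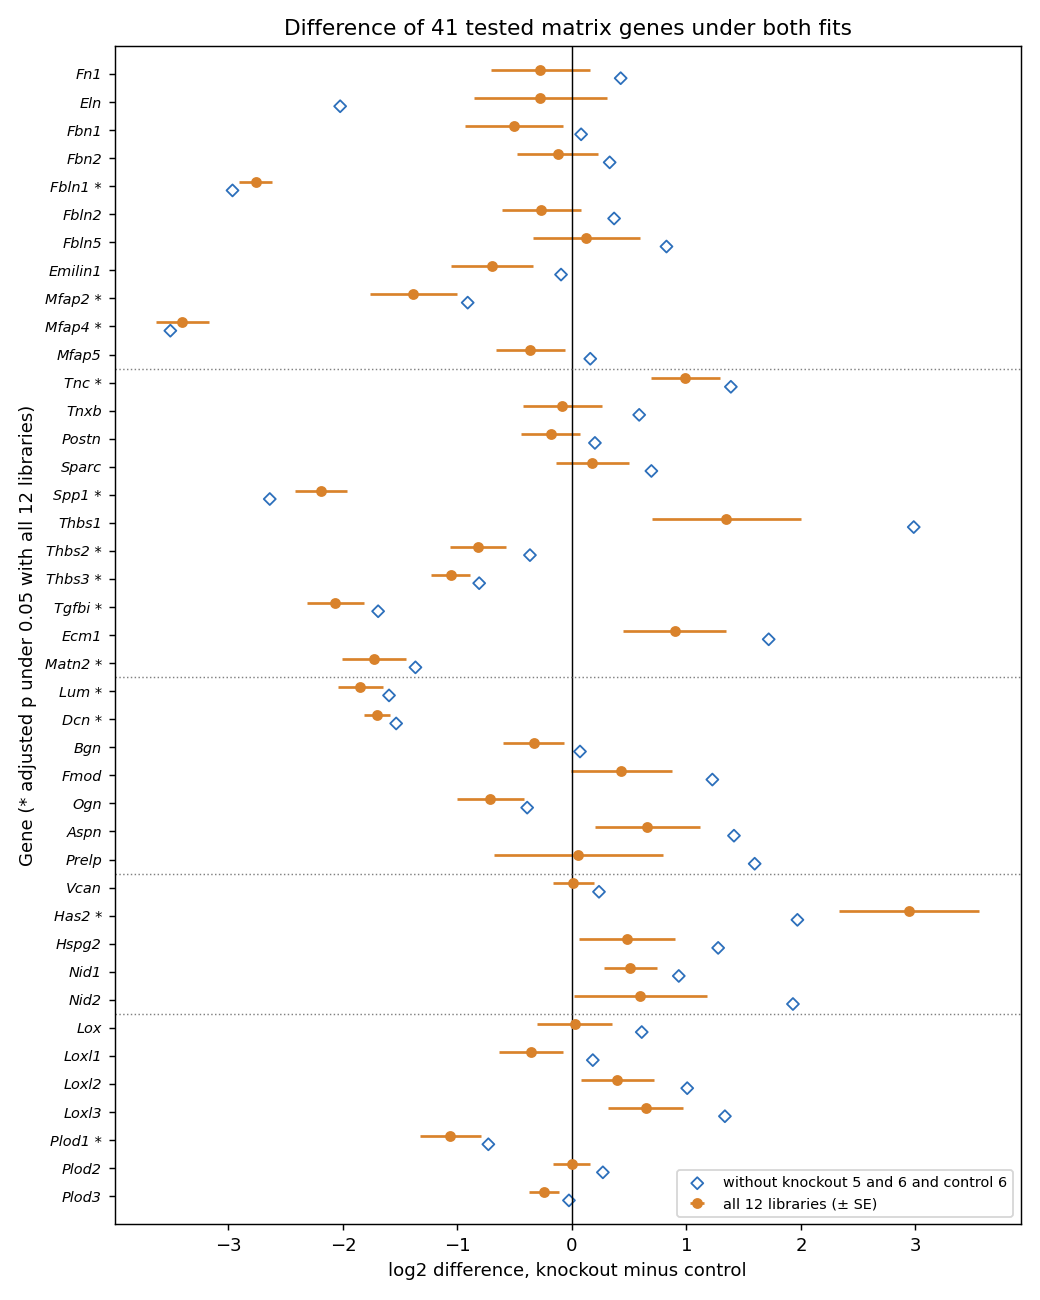
Log2 difference (knockout minus control) of the 41 tested matrix genes, with all 12 libraries (orange circles, bars show SE) and without knockout 5, knockout 6 and control 6 (blue diamonds), and an asterisk on genes past an edgeR adjusted p of 0.05 with all libraries. Fbln1, Mfap4, Spp1, Tgfbi, Lum and Dcn stay at -1.53 or lower in both, while Thbs1 is at 1.35 in one and 2.99 in the other.

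Levels were also compared between genes per kilobase of exon, since longer transcripts give more counts. Thbs1 ranked first of the 42 in CPM per kilobase in all 6 knockout libraries and in control 6, and biglycan ranked first in control 1 to 5, followed by Sparc. Fn1 and Fbln2 were among the highest 5 in every library. Spp1 ranked 11 in each of knockout 1 to 4 and 6 in knockout 5 and 6, against 5 in control 1 to 5 and 7 in control 6. Decorin ranked 15 to 18 in knockout 1 to 4 and 12 in knockout 5 and 6, against 9 in control 1 to 5 and 11 in control 6. Has2 ranked 28 to 30 in knockout 1 to 4 and 13 in knockout 5 and 6, against 37 to 38 in control 1 to 5 and 34 in control 6.

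Other matrix genes were read from 3 lists beside the 42. Of 36 tested glycoproteins and proteoglycans (63 symbols listed), 6 were higher and 9 lower, and 21 did not pass, beside 21.4% higher and 21.6% lower among all genes. Sparcl1, hevin, a relative of SPARC, averaged 4.2 ± 0.832 CPM in knockout and 30 ± 8.15 CPM in control libraries (n = 6 each, ± SD; difference on the log2 scale -2.83, SE 0.23, edgeR adjusted p = 5.14e-06). Sparcl1 lies in the same run of genes on chromosome 5 as Spp1, and both were lower. The heparan sulfate proteoglycan Agrn, agrin, was also lower, at 65.1 ± 19.5 CPM in knockout and 204 ± 20.5 CPM in control libraries (-1.64, SE 0.19, edgeR adjusted p = 4.6e-05). Smoc1, a calcium-binding basement membrane protein, was higher at 4.78 ± 0.592 CPM in knockout and 1.43 ± 0.594 CPM in control libraries (1.72, SE 0.25, edgeR adjusted p = 0.000195). Its relative Smoc2, picked after its value was seen because it is adjacent to Thbs2 on chromosome 17, was higher (0.80, SE 0.22, edgeR adjusted p = 0.0122) where Thbs2 was lower.

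Of 19 tested collagen-modifying and other crosslinking enzymes (26 symbols listed), 3 were higher, 7 lower and 9 not past, beside the same shares of all genes. The collagen chaperones P4hb, the beta subunit of prolyl 4-hydroxylase, and Ppib, cyclophilin B, were lower. P4hb averaged 1137 ± 310 CPM in knockout and 2507 ± 370 CPM in control libraries (log2 difference -1.14, SE 0.20, edgeR adjusted p = 0.000625). Ppib averaged 245 ± 31 CPM in knockout and 624 ± 157 CPM in control libraries (-1.35, SE 0.19, edgeR adjusted p = 0.000147). On the higher side, Tgm2, a transglutaminase that crosslinks matrix proteins such as fibronectin, averaged 299.7 ± 18.1 CPM in knockout and 128 ± 20.5 CPM in control libraries, with no overlap (1.23, SE 0.10, edgeR adjusted p = 6.34e-06). Tll1, a protease that processes procollagen, was higher too (1.75, SE 0.34, edgeR adjusted p = 0.00143), with control 6 at 124 CPM inside the knockout range of 120 to 199 CPM.

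Among 33 tested glycosaminoglycan genes of 35 listed, 8 were higher, 3 lower and 22 not past, again beside 21.4% higher and 21.6% lower among all genes. Of the 33, 5 lay wholly above the controls and 3 wholly below, and the 4 named here were chosen for their small adjusted p. Cd44, the main cell surface receptor for hyaluronan, averaged 1086 ± 199 CPM in knockout and 276 ± 205 CPM in control libraries (log2 difference 1.97, SE 0.34, edgeR adjusted p = 0.000643). Like Has2, it was highest in knockout 5 and 6 and higher in control 6 than in the other controls. Tmem2, a cell surface hyaluronidase, averaged 58 ± 9.67 CPM in knockout and 21.3 ± 6.54 CPM in control libraries (1.44, SE 0.18, edgeR adjusted p = 7.37e-05). Hmmr, a hyaluronan-binding protein that also acts on the mitotic spindle, had a difference of 0.87 (SE 0.14, edgeR adjusted p = 0.000372). Hs6st2, which adds sulfate to heparan sulfate, had one of 0.79 (SE 0.08, edgeR adjusted p = 2.7e-05). Leaving out control 6 moved the counts of higher genes to 12, 7 and 13 in the 3 lists, and leaving out knockout 5 or knockout 6 moved that of the enzymes to 5. Without knockout 5 and 6 together the higher genes were 12, 7 and 14, with 14 glycoproteins and proteoglycans lower. Without control 6 as well they were 21, 9 and 23, with 15, 9 and 3 lower. Library totals alone gave 6 lower glycosaminoglycan genes, and none of the 3 lists had a gene past the test with summed sets.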

How the data were processed

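RNA from 6 knockout and 6 control samples was made into strand-specific libraries after oligo-dT selection, per the labels' protocols. The authors deposited expected counts per gene, estimates that need not be whole, for 24411 mouse symbols. The submitters' processing notes list Bowtie2 2.1.0 and RSEM 1.2.15 beside a human genome build, which leaves the build uncertain. The strand setting and the annotation are not given in these sources, and overlapping or near-identical genes may share reads. Between 2.67% and 3.48% of the values per library had decimals, and all were rounded.

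The 12 columns were matched to sample titles. The filterByExpr rule (at least 10 counts, total of at least 15) chose the genes, which were scaled by TMM and tested for genotype with the edgeR 4.0.16 quasi-likelihood test (R 4.3.3), with Benjamini-Hochberg adjustment at 0.05. CPM uses the scaled library sizes, and log2 differences are knockout minus control. Scripts were tested on simulated counts. Exon lengths came from GENCODE M21, which may not be the annotation the authors used, and promoter windows and gene order from RefSeq, GRCm38.p6.

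The members and lists were chosen with earlier results of these data known. The text names Tnfrsf1a, the 42 members and up to 4 called genes with the smallest adjusted p from each of 3 lists; Kera, Ecm2, Omd, Smoc2, Rn45s and the markers were named after their values were seen. Alternatives were DESeq2 1.42.0 size factors and test, library totals, limma 3.58.1 voom, other filters, a replicate block, each library left out, knockout 5 and 6 left out together, alone or along with control 6, and summed sets. For the lists beside the members these were added after the data were seen.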

Additional observations from a re-analysis of the deposited data

Results flagged for a closer look

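In 84 combinations of a member and a group, the highest and lowest of the 6 values were examined by Dixon's criterion at the 95% level. It sets the gap to the nearest value against the range of the group, and 34 values stood apart. Because it weighs a single extreme value, libraries that lie apart together, as knockout 5 and 6 did in most members, can hide each other. Chance alone would make about 1 in 20 groups stand apart, and the members share libraries, so these are not independent. Control 6 was high for 27 members. For the elastic fibre and matricellular genes its CPM values were Fn1 22927, Fbn1 2669, Fbln2 12702, Fbln5 748, Emilin1 262, Mfap5 312, Tnc 2890, Tnxb 8.33, Sparc 7479, Thbs1 30302, Thbs2 1089 and Ecm1 255. For the remaining genes they were Bgn 6787, Fmod 12.3, Aspn 18.6, Prelp 88.3, Vcan 321, Has1 2.1, Has2 36.6, Hspg2 2459, Nid1 2821, Nid2 170, Lox 5017, Loxl1 682, Loxl2 1401, Loxl3 404 and Plod2 278. Control 6 was low for 4 members, with CPM values of Eln 0.191, Fbln1 79.2, Mfap4 12.5 and Ogn 59.3. Knockout 3 was low for Tnc at 1875 CPM and for Vcan at 144 CPM, and knockout 5 was high for Has1 at 2.49 CPM. Knockout 3 also had the smallest total count, 6543013.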

How the results depend on the processing

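All 13 calls kept their direction and passed under DESeq2 size factors, library totals, the DESeq2 test, limma-voom, both other filters, both fits that left out knockout 5 and 6, and each of the 12 fits that left out a library. The 11 lower genes and Has2 had no overlap between groups, so leaving libraries out could hardly turn their direction. Members lower stayed at 11 when 1 library was left out and members higher ran from 2 to 7, with the highest count without control 6. Over all genes those fits called 2148 to 3092 higher and 2270 to 2977 lower. Members higher were 4 under limma-voom, against 2512 of 12146 genes. Without knockout 5 and 6 members were 12 higher and 13 lower, against 3055 and 3433 of 12471 genes. Without control 6 as well 24 members were higher, where 4319 of 12382 genes were higher and 4508 lower. With 4 summed sets, members higher and lower and all genes higher and lower were 0 each, with 4 samples in the fit. Ogn passed as lower without knockout 5 and 6, under library totals, the DESeq2 test (adjusted p = 0.0458) and limma-voom, and Thbs1 and Loxl3 as higher under limma-voom.

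No label says that the shared replicate numbers pair the samples. The deviations of same-numbered libraries correlated at -0.38 to 0.22, and no knockout library correlated best with the control of its own number. With the replicate block members were 3 higher and 11 lower, Thbs2 did not pass (adjusted p = 0.0547), and Thbs1 and Ogn did (0.0341 and 0.0439).

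Differences that changed sign all belonged to members that had not passed with all libraries, and the cause was not tested. Without knockout 5 and 6 the log2 differences were 0.16 for Fn1, 0.30 for Fbn2, 0.090 for Fbln2, 0.24 for Tnxb, 0.14 for Postn and 0.21 for Plod2, of which Fbn2 (adjusted p = 0.0397) and Plod2 (0.0446) passed as higher. Without control 6 as well they were 0.43 for Fn1, 0.081 for Fbn1, 0.33 for Fbn2, 0.37 for Fbln2, 0.16 for Mfap5, 0.59 for Tnxb, 0.20 for Postn, 0.071 for Bgn, 0.18 for Loxl1 and 0.27 for Plod2, and all of these but Fbn1 and Bgn passed as higher. With summed sets they were 0.46 for Eln, -0.54 for Fbln5, -0.29 for Sparc, -0.30 for Fmod, -0.071 for Aspn, -1.26 for Prelp, -0.32 for Vcan, -0.30 for Hspg2, -0.59 for Nid2, -0.55 for Lox, -0.21 for Loxl2 and -0.10 for Loxl3. Limma-voom gave -0.20 for Fbln5, -0.23 for Prelp and -0.057 for Lox, the replicate block gave -0.13 for Fbln5 and -0.044 for Lox, and library totals gave -0.036 for Vcan and -0.038 for Lox. Vcan was at -0.0014 with no filter, and Plod2 at 0.0060 under DESeq2 size factors and 0.0059 under the DESeq2 test. Leaving out 1 library gave -0.36 to 0.011 for Fbln2, -0.27 to 0.067 for Fbn2, -0.069 to 0.25 for Lox, -0.059 to 0.097 for Plod2, -0.093 to 1.05 for Prelp, -0.27 to 0.23 for Tnxb and -0.038 to 0.22 for Vcan. Has1 was below the filter.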
